A study of Mus musculus with 16 samples.

Results

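Ligature-induced periodontitis was compared with untreated tissue across all expressed genes. The comparison used the 4 ligature and the 4 control libraries as the labels name them, 8 of the 16 libraries of the series. All mice were male, wild-type C57BL/6J animals aged 9 weeks when the models were set up. Control mice had no treatment. Ligature mice had a silk thread placed under anesthesia around the second molar of the upper left jaw. The other 8 libraries came from mice whose same molar carried composite resin on its biting surface (trauma), without or with the ligature, and they entered the model only to estimate the spread and for an independent look at the ligature effect. Periodontal ligament is the tissue in the labels, although the series carries bone in its title. The sources used here do not say how long the thread stayed in place, how many mice made up a library or at what hour tissue was taken. Whether a library is 1 animal is therefore unknown, and the p-values describe differences among libraries that can be technical in part.

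The periodontal ligament is the fibrous tissue that slings a tooth root to the wall of its bony socket, and it holds fibroblasts, bone-lining cells, vessels, nerve endings and rests of the dental epithelium. A thread at the gum line collects bacterial plaque, and the tissue answers with inflammation, infiltration by neutrophils and macrophages, and resorption of the socket bone by osteoclasts, the giant cells that dissolve mineral with acid and digest collagen with proteases. Repair and turnover depend on the fibroblasts and osteoblasts, which secrete collagen, matrix proteins and growth factors.

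Between 61562188 and 77468584 counts were assigned to genes in each of the 8 libraries, and 20953 genes were tested. A gene passed where the Benjamini-Hochberg adjusted p of edgeR's quasi-likelihood test was under 0.05 in a model of all 16 libraries. Levels are CPM, counts scaled to a common library total, and a ± after a level is the SD over the 4 libraries of a group. Differences are log2 fold changes, ligature minus control, and a ± after one is its SE. Unless a sentence says otherwise, each gene given as higher or lower with its log2 fold change also passed under all 26 alternative settings. A setting that gave a gene no adjusted p is left out of this. The settings include leaving out each library in turn. For genes given without a fold change, results under the alternatives are stated only where a sentence gives them. Genes named for the largest fold change, lowest p or largest CPM difference had to have separate ranges. Their lack of overlap is therefore no added support.

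Several libraries stood apart. Ligature 2 was rich in short transcripts. Its rank correlation of level with transcript length, taken over genes and so not over independent points, was -0.603, against 0.122 to 0.494 in the other 7 libraries. Skeletal muscle markers, a sign of neighbouring tissue, summed to 32.7, 7.75, 402 and 25.6 CPM in controls 1 to 4 and 34.8, 1649.6, 315 and 9.94 CPM in ligature 1 to 4. Erythroid markers summed to 26295 CPM in ligature 2 and 1259, 1569 and 3682 CPM in ligature 1, 3 and 4, and to 2888, 3542, 8620.1 and 15984 CPM in controls 1 to 4. Oral epithelium markers summed to 14057, 14878, 3842 and 1693 CPM in controls 1 to 4 and 1859.7 to 3086 CPM with the ligature. Odontoblast and pulp markers summed to 3206 CPM in ligature 4 and at most 713 CPM in the other ligature libraries, and to 4074, 1204, 1092 and 3107 CPM in controls 1 to 4. Removing control 3, ligature 2 and ligature 3, which held the most muscle RNA, gave 614 genes that passed, against 2234 with all libraries. That setting was chosen after seeing the data and compares 3 control with 2 ligature libraries.

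The ligature was associated with a broad change in both directions. In all, 2234 genes passed (10.7% of those tested), 1233 higher (5.88%) and 1001 lower (4.78%) with the ligature. Of these, 1859 differed at least 2-fold. At least 16-fold, 217 fell and 81 rose. Among the genes that passed, 96 were without a count in all ligature libraries and 45 in all control libraries. The fitted fold changes of such genes depend on the prior count. The median log2 fold change was 1.51 among the genes that rose, -1.83 among those that fell and -0.05 over all genes tested. Ligature and control ranges did not overlap for 4008 genes (19.1%), with 2090 higher (9.97%) and 1918 lower (9.15%), and 1965 genes both passed and had separate ranges. The number that passed was 1444, 1449 and 1430 without control 1, control 2 and ligature 1, and 1369 when only the 8 compared libraries were fitted.

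**Figure D1:**
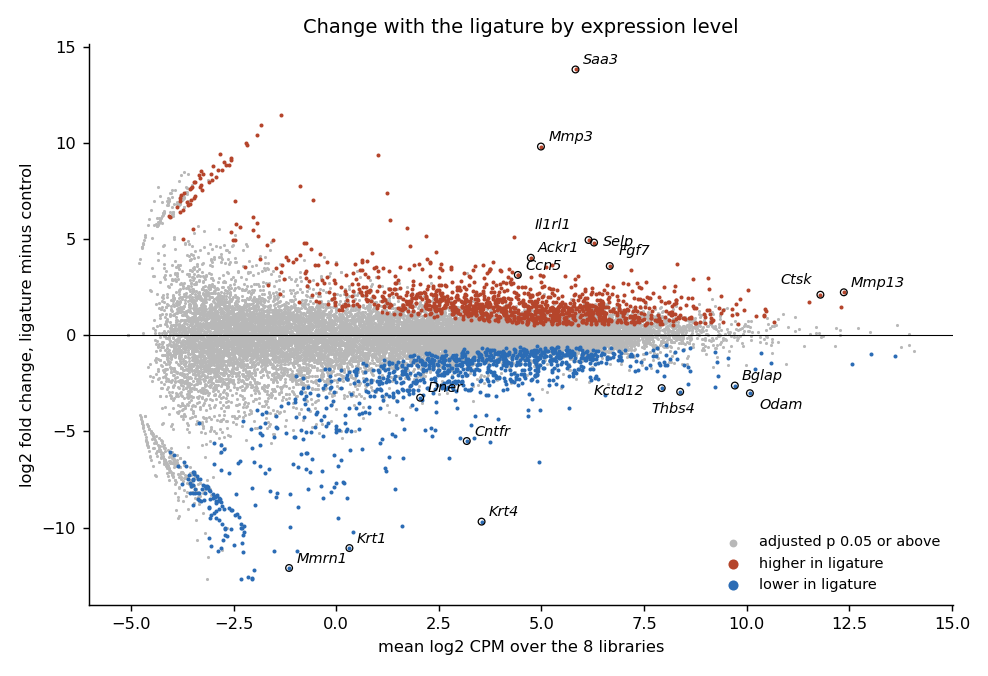
Each point is 1 of the 20953 genes tested. The horizontal axis gives the mean log2 CPM over the 8 libraries and the vertical axis the log2 fold change, ligature minus control. Red points rose and blue points fell (adjusted p under 0.05), and grey points did not pass. Saa3, Mmp3 and Il1rl1 lie above the cloud, and Cntfr, the keratin genes and Mmrn1 below it. The arcs at the left edge are genes without counts in one of the groups, whose fitted fold changes depend on the prior count.

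The gene with the lowest p of all was Fgf7 (ENSMUSG00000027208.15), which encodes keratinocyte growth factor, a fibroblast product that acts on epithelium. Its levels were 26.7, 31.9, 24.98 and 33.2 CPM in controls 1 to 4 and 357, 379, 348 and 331 CPM in ligature 1 to 4. The 4 ligature libraries lay close together, and the lowest of them was 9.98 times the highest control. The log2 fold change was 3.600 ± 0.23 (edgeR adjusted p = 5.43e-07). The receptor for this factor is a splice form of Fgfr2, and Fgfr2 as a whole fell, from 259.8 ± 38.8 to 87.2 ± 39.1 CPM (-1.57 ± 0.33). Fgf10, a close relative of Fgf7 that binds the same receptor form, was without a count in all 4 ligature libraries and at 0.0562 to 3.95 CPM in control.

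A steep rise was also seen for Mmp3 (ENSMUSG00000043613.9), or stromelysin, a protease that cleaves proteoglycans and activates collagenases. Mmp3 stood at 1.704, 1.55, 0.682 and 0.534 CPM in controls 1 to 4 and at 1333, 1057, 891 and 741 CPM in ligature 1 to 4. The lowest ligature library was 435 times the highest control (9.81 ± 0.86, adjusted p = 2.23e-05). Saa3 (ENSMUSG00000040026.9), a serum amyloid A gene expressed outside the liver in the mouse, went from 0.979, 0.368, 0.399 and 0.323 to 5624, 14995, 3749 and 5665 CPM (13.81 ± 1.09, adjusted p = 6.17e-06). Ligature 2 had the highest Saa3 level, well above the other 3, and the lowest ligature library was 3831 times the highest control. Smaller but tight changes were seen for Ccn5, a secreted protein of the CCN matrix family, with 6.08, 9.31, 7.0004 and 6.85 CPM in control and 71.3, 74.3, 61.7 and 49.9 CPM with the ligature (3.14 ± 0.298, adjusted p = 4.44e-05). Meox1, a homeobox transcription factor linked to fibroblast activation, rose from 7.96 ± 2.33 to 51.9 ± 12.995 CPM (2.71 ± 0.25), and Vwa1, a matrix protein found near basement membranes, rose from 16.2 ± 2.02 to 67.6 ± 12.6 CPM (2.06 ± 0.21). Rln1, a relaxin gene, rose from 1.05 ± 0.937 to 37.9 ± 36.5 CPM (5.17 ± 1.02), with ligature 2 highest, and did not pass without the 3 libraries with muscle RNA (adjusted p = 0.0668).

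**Figure D2:**
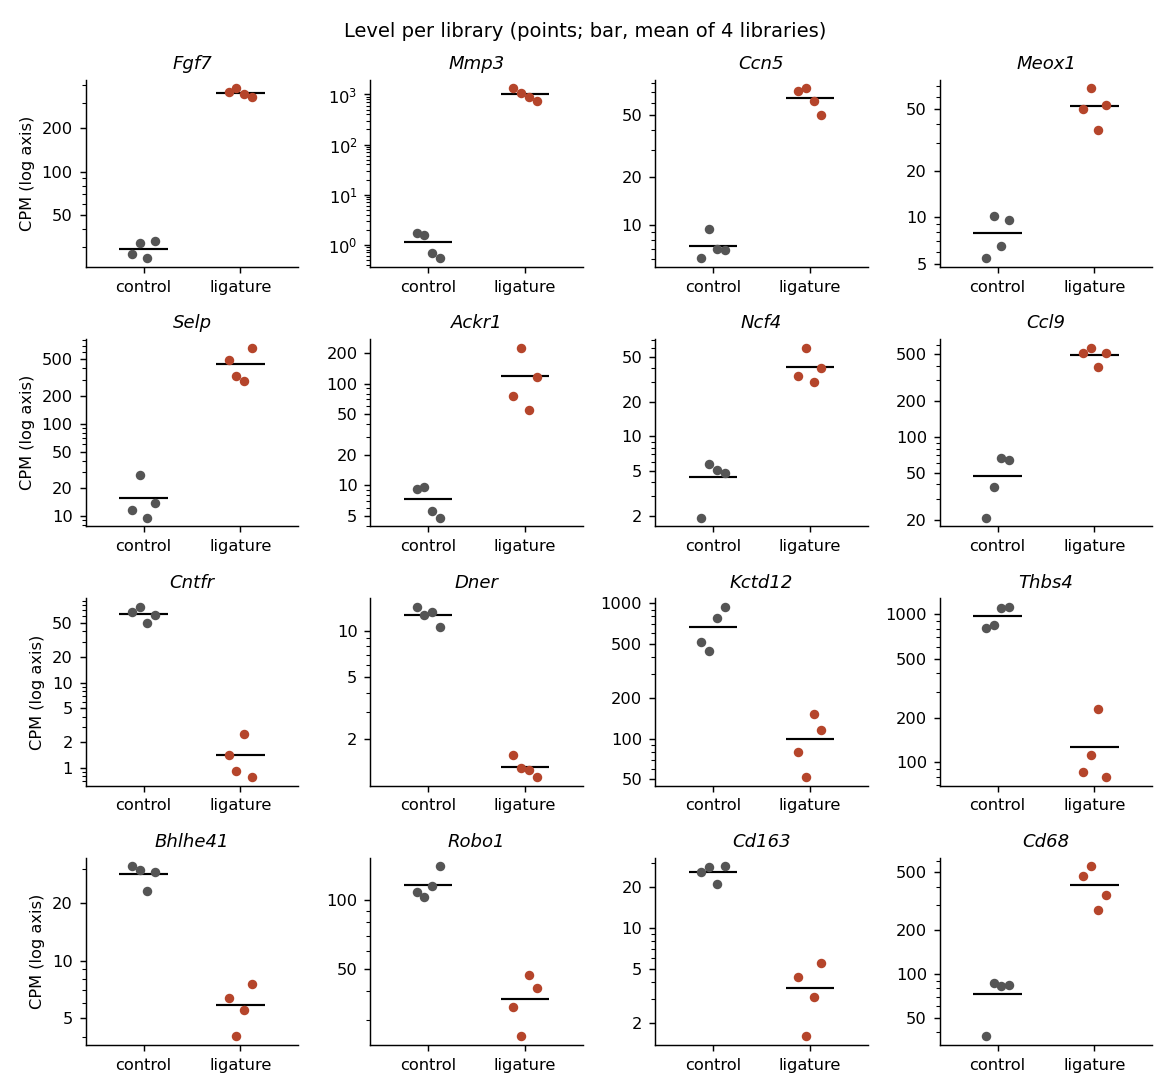
Levels of 16 genes in each library, in CPM on log axes, with control libraries in grey and ligature libraries in red. Points are libraries in the order of their replicate numbers, and each bar is the mean of 4 libraries. None of the 16 genes has overlapping groups, which for many of them was a condition of being named. The 4 ligature values of Fgf7 lie between 331 and 379 CPM.

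The promoters of Saa3, Mmp3 and Fgf7 are shown because these genes were among the steepest and lowest in p, and their windows differ in the letters that inflammatory transcription factors bind. Sequences are from RefSeq on GRCm38.p6, 250 bases before to 50 bases after the start, and capitals mark a match on either strand to the letters of AP-1 (TGANTCA) or C/EBP (TTGCNNAA).
Saa3: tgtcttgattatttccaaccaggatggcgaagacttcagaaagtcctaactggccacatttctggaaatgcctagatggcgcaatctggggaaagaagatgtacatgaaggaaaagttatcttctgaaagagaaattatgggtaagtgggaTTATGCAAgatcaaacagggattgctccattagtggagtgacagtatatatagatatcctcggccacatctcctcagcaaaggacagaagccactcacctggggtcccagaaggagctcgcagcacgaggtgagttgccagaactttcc
Mmp3: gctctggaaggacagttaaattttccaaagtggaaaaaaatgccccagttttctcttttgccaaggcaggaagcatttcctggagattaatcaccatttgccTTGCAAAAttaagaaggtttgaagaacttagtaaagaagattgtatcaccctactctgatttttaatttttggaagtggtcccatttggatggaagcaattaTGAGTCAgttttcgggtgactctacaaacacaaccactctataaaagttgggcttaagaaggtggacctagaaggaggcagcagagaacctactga
Fgf7: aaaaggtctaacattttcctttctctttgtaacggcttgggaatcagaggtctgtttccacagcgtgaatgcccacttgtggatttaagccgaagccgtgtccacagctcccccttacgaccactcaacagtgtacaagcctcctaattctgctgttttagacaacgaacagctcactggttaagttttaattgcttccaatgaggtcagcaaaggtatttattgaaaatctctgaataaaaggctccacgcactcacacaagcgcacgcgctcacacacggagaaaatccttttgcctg
The Saa3 window (chr7:46715627-46715926, minus strand) held 1 C/EBP match that began 99 bases before the start. The Mmp3 window (chr9:7445572-7445871, plus strand) held an AP-1 match 46 bases and a C/EBP match 148 bases before the start. The Fgf7 window (chr2:126034408-126034707, plus strand) held neither, which says only that these letters are not in this window. Windows were found for 13276 tested genes, and 7.37% of them held the AP-1 letters, against 10.6% of the 853 genes that rose and 9.33% of the 729 that fell. The C/EBP letters were in 10.7%, 11.96% and 12.5% of these windows. A match is a description of the sequence and not evidence of binding.

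Vessel genes rose. Of 14 blood endothelium markers 12 rose and none fell, with a median log2 fold change of 1.31 against -0.05 over all genes, and the summed level was 339 to 556 CPM in control and 1414 to 2183 CPM with the ligature. More cells of a type and more RNA per cell cannot be told apart in bulk tissue. Selp, or P-selectin, on which leukocytes roll, was at 11.6, 27.8, 9.63 and 13.8 CPM in controls and 484, 329, 289 and 668 CPM in ligature libraries. Ackr1, a chemokine-binding receptor of venules, was at 9.12, 9.55, 5.56 and 4.804 CPM and 76.2, 227, 54.6 and 116 CPM. The lowest ligature library exceeded the highest control for each (4.82 ± 0.63 and 4.03 ± 0.54, adjusted p = 0.000421 and 0.000465). Esam, a junction protein (1.67 ± 0.26), and Plvap, which forms the diaphragms of permeable vessels (1.35 ± 0.23), rose as well. Dll4, the Notch ligand of sprouting vessels, rose from 1.88 ± 0.436 to 8.29 ± 2.27 CPM (2.13 ± 0.300), and Pdgfb, which endothelium releases to recruit mural cells, rose from 5.29 ± 2.32 to 22.3 ± 4.43 CPM (2.08 ± 0.402).

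Genes of the vessel wall rose too. Mcam, an adhesion molecule of endothelium and pericytes, had the next lowest p after Fgf7. Its levels were 15.1, 15.8, 16.6 and 18.2 CPM in control and 83.7, 83.6, 80.7 and 97.8 CPM with the ligature, without overlap (2.39 ± 0.18, adjusted p = 4.2e-06). Of 12 pericyte and smooth muscle markers 4 rose and none fell. They included Acta2, smooth muscle actin, which rose from 23.5 ± 7.14 to 202 ± 171 CPM (3.102 ± 0.49) and was highest in ligature 2. Bdkrb1, the inducible bradykinin receptor that mediates pain and vessel leakage, rose from 0.991, 1.321, 1.31 and 1.24 CPM to 23.7, 34.4, 18.7 and 19.8 CPM (4.31 ± 0.52, adjusted p = 0.000215). The control libraries lay close together, and the lowest ligature library was 14.1 times the highest of them.

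Basement membrane genes moved in both directions. Of 20 members, 3 rose and 3 fell, with a median log2 fold change of -0.44. Of 5 collagen IV genes tested (median -1.08) 2 rose, Col4a1 from 70.2 ± 14.2 to 342 ± 129 CPM (2.29 ± 0.34) and Col4a2 from 31.9 ± 10.4 to 127 ± 34.8 CPM (1.995 ± 0.32), and so did Col18a1, the source of endostatin, which was not in the list's count (2.28 ± 0.31). Ligature 2 was the lowest ligature library for all 3 and still above every control. The laminin chains Lama2, of muscle and nerve basement membranes, and Lamc3 fell by 1.797 ± 0.25 and 1.91 ± 0.33 on the log2 scale. With the length trend removed 7 members rose.

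Lymphatic markers moved in both directions. Of 9 tested, 2 rose and 2 fell, and the median log2 fold change was -1.02. Gja4, a connexin, rose by 1.91 ± 0.38 but not without the 3 libraries with muscle RNA (adjusted p = 0.0584). Lyve1, a hyaluronan receptor also found on macrophages, passed by a small margin (adjusted p = 0.0459) and not in 19 of the 26 alternatives. The count of 2 that rose was 1 without any of the 4 control libraries, ligature 1 or ligature 2. Mmrn1, a secreted protein of lymphatic endothelium, was at 10.8, 14.2, 3.36 and 4.14 CPM in control and without a count in all 4 ligature libraries, at least 173-fold lower against a floor of 3 counts per library. Ccl21a, the chemokine that guides dendritic cells into lymph vessels, was at 29.7, 35.1, 5.62 and 1.55 CPM in control and 0.158, 0.039, 0.0412 and 0.0552 CPM with the ligature. It passed (-7.902 ± 1.47), but not with limma-voom (adjusted p = 0.165) or without the 3 libraries with muscle RNA (adjusted p = 0.0703). Reads of Ccl21a can be shared with near-identical copies. The receptor of this chemokine, Ccr7, rose from 2.21, 2.26, 1.21 and 1.39 CPM to 16.6, 31.1, 16.1 and 16.99 CPM (3.51 ± 0.52), with ligature 2 standing above the other 3.

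Leukocyte genes rose. Of 18 genes of the leukocyte actin machinery 12 rose and none fell (median 1.44). Fermt3, which activates integrins in blood cells, rose from 8.53 ± 1.46 to 28.1 ± 4.92 CPM (1.72 ± 0.24), and Vav1, a signalling protein of blood cells, rose from 5.58 ± 1.48 to 24.5 ± 6.24 CPM (2.13 ± 0.32). Of 20 trafficking receptors and adhesion molecules 12 rose and none fell (median 1.62). Selplg, the leukocyte ligand of P-selectin, was at 15.9, 26.1, 19.4 and 16.8 CPM in control and 73.6, 123, 65.99 and 71.9 CPM with the ligature (2.098 ± 0.28), and Ccr1, a receptor for inflammatory chemokines, rose from 51.5 ± 18.3 to 334 ± 52.6 CPM (2.696 ± 0.37). The chemokine Ccl9, a mouse ligand of Ccr1, stood at 20.95, 37.7, 67.2 and 63.5 CPM in control and 506, 567, 392 and 508 CPM with the ligature. The lowest ligature library was 5.84 times the highest control (3.38 ± 0.45, adjusted p = 0.000463). Activating and inhibitory receptors of myeloid cells rose in 12 of 22 (median 1.324), but in 3 without control 1, in 6 without control 3, control 4 or ligature 1, and in 7 without ligature 4.

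**Figure D3:**
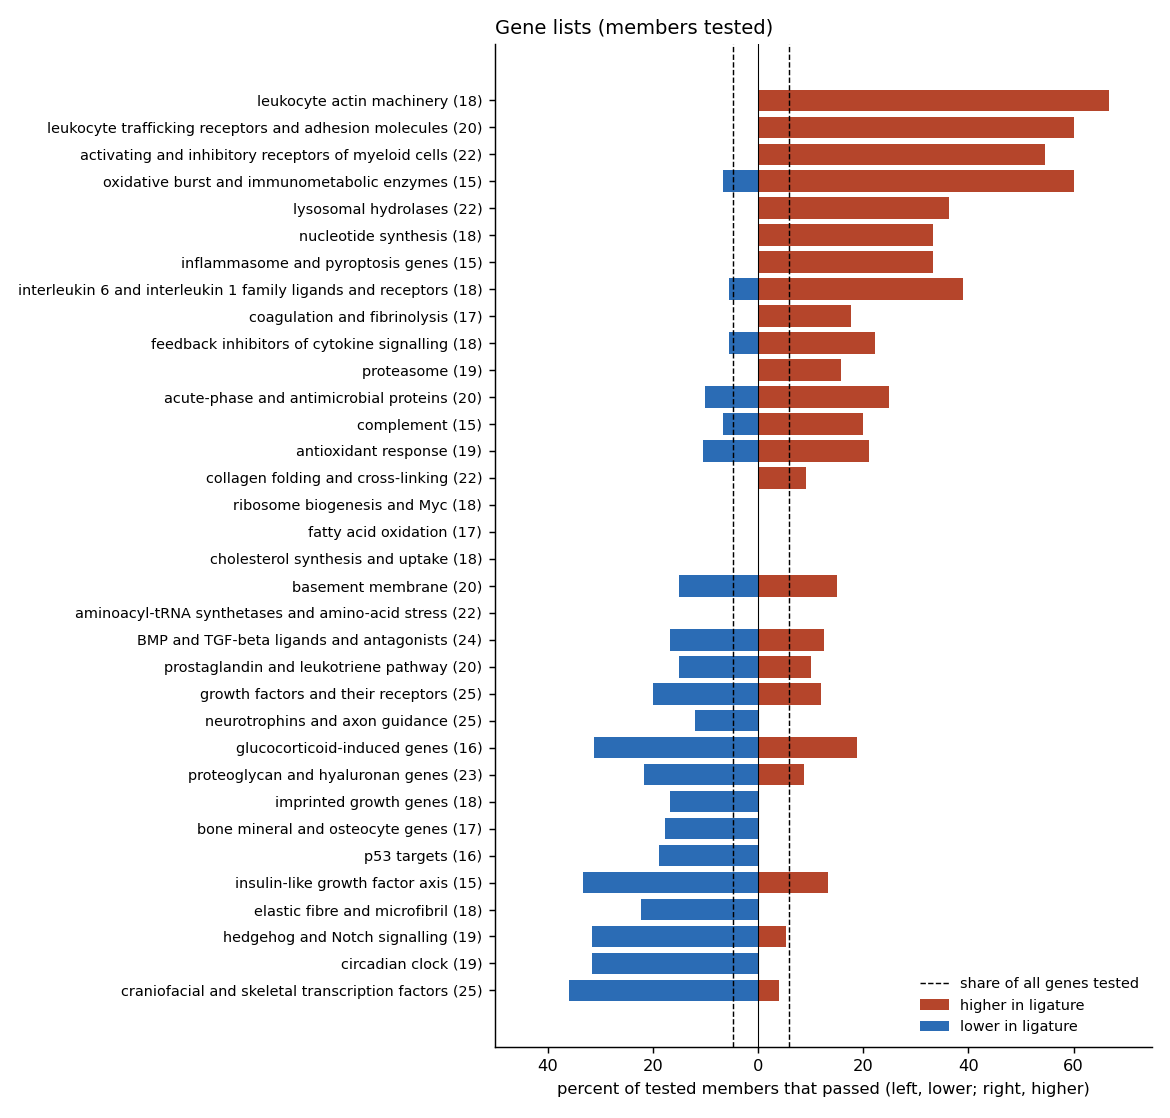
Bars give the percent of the tested members of each gene list that rose (right) or fell (left) with the ligature at an adjusted p under 0.05, with the number of members tested in parentheses. Dashed lines mark the shares over all genes tested, 5.88% higher and 4.78% lower. Leukocyte lists lie at the top, craniofacial transcription factors and clock genes at the bottom, and 4 lists have no member that passed.

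The oxidative burst machinery of phagocytes rose in parts. Of 15 members 9 rose and 1 fell (median 1.51). Ncf4, a cytosolic subunit of NADPH oxidase, was at 1.95, 5.76, 5.06 and 4.75 CPM in control and 33.8, 60.04, 29.8 and 39.7 CPM with the ligature (3.22 ± 0.35), and the groups did not overlap. Rac2, the GTPase that completes the enzyme, rose from 24.5 ± 10.2 to 151 ± 45.4 CPM (2.62 ± 0.37). The enzymes Nos2, Arg2 and Acod1, which make nitric oxide, ornithine and itaconate, also rose. The member that fell was Slc7a2, an arginine transporter, from 15.3 ± 4.66 to 3.38 ± 0.389 CPM (-2.17 ± 0.33).

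Of 15 inflammasome and pyroptosis genes, a list that also holds necroptosis genes, 5 rose and none fell (median 0.99). Ripk3, the kinase of necroptosis, was at 10.005, 20.1, 17.7 and 14.9 CPM in control and 49.4, 54.1, 52.5 and 41.5 CPM with the ligature (1.65 ± 0.27), and the groups did not overlap. Its target Mlkl, which punctures the membrane (2.099 ± 0.39), and Casp4, the mouse sensor of bacterial lipopolysaccharide in the cytosol (1.89 ± 0.36), also rose, but neither passed without the 3 libraries with muscle RNA (adjusted p = 0.0653 and 0.0589). Of the interleukin 6 and interleukin 1 families, 7 of 18 genes rose and 1 fell (median 1.13). Il1rl1, the receptor for interleukin 33, went from 3.94, 31.3, 8.98 and 14.2 CPM to 578, 358, 438 and 436 CPM (4.95 ± 1.04, adjusted p = 0.00706, 0.0725 without the 3 libraries with muscle RNA). Interleukin 33 itself, Il33, also rose. Il6 was at 0.0483, 0, 0.309 and 0 CPM in control and 85.2, 62.3, 55.9 and 41.9 CPM with the ligature, so that its fold change (9.37 ± 1.48) rests on a control group near 0. It did not pass with limma-voom (adjusted p = 0.0732). The member that fell was Il11ra1, the receptor for interleukin 11.

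Macrophage genes went in opposite directions. Cd68, a lysosomal protein of macrophages and osteoclasts, was at 37.2, 86.4, 83.1 and 83.9 CPM in control and 469.6, 551, 277 and 348 CPM with the ligature (2.502 ± 0.33). Cd163, the haemoglobin scavenger receptor of resident tissue macrophages, was at 25.9, 28.1, 21.1 and 28.4 CPM and 4.398, 1.601, 3.11 and 5.51 CPM (-2.82 ± 0.43), and the groups did not overlap for either. Mrc1, the mannose receptor, fell by 1.72 ± 0.31 on the log2 scale, and Mertk, a receptor for dying cells, by 1.52 ± 0.31 (adjusted p = 0.0803 without the 3 libraries with muscle RNA). In all, 3 of 14 macrophage markers rose and 4 fell (1 rose without control 1, control 3, control 4 or ligature 1), and their summed levels overlapped between the groups (628 to 962 CPM in control, 913 to 1630.3 CPM with the ligature). Of 12 mature neutrophil markers 8 rose and none fell, and 5 rose without control 1 or without the 3 libraries with muscle RNA. No T and NK cell, B and plasma cell or mast cell marker passed with edgeR, of 16, 10 and 11 tested. At an unadjusted p under 0.05 there were 3, 2 and 3, and DESeq2 called 2 T and NK cell and 1 B and plasma cell marker higher and 1 mast cell marker lower. Marker genes of granulocyte precursors in marrow summed to 81.3 to 439 CPM in control and 11.5 to 39.1 CPM with the ligature. Mast cell markers summed to 71.8 to 127 CPM in control and 17.4 to 50.6 CPM with the ligature. The part of either cell type in these results was not tested.

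**Figure D4:**
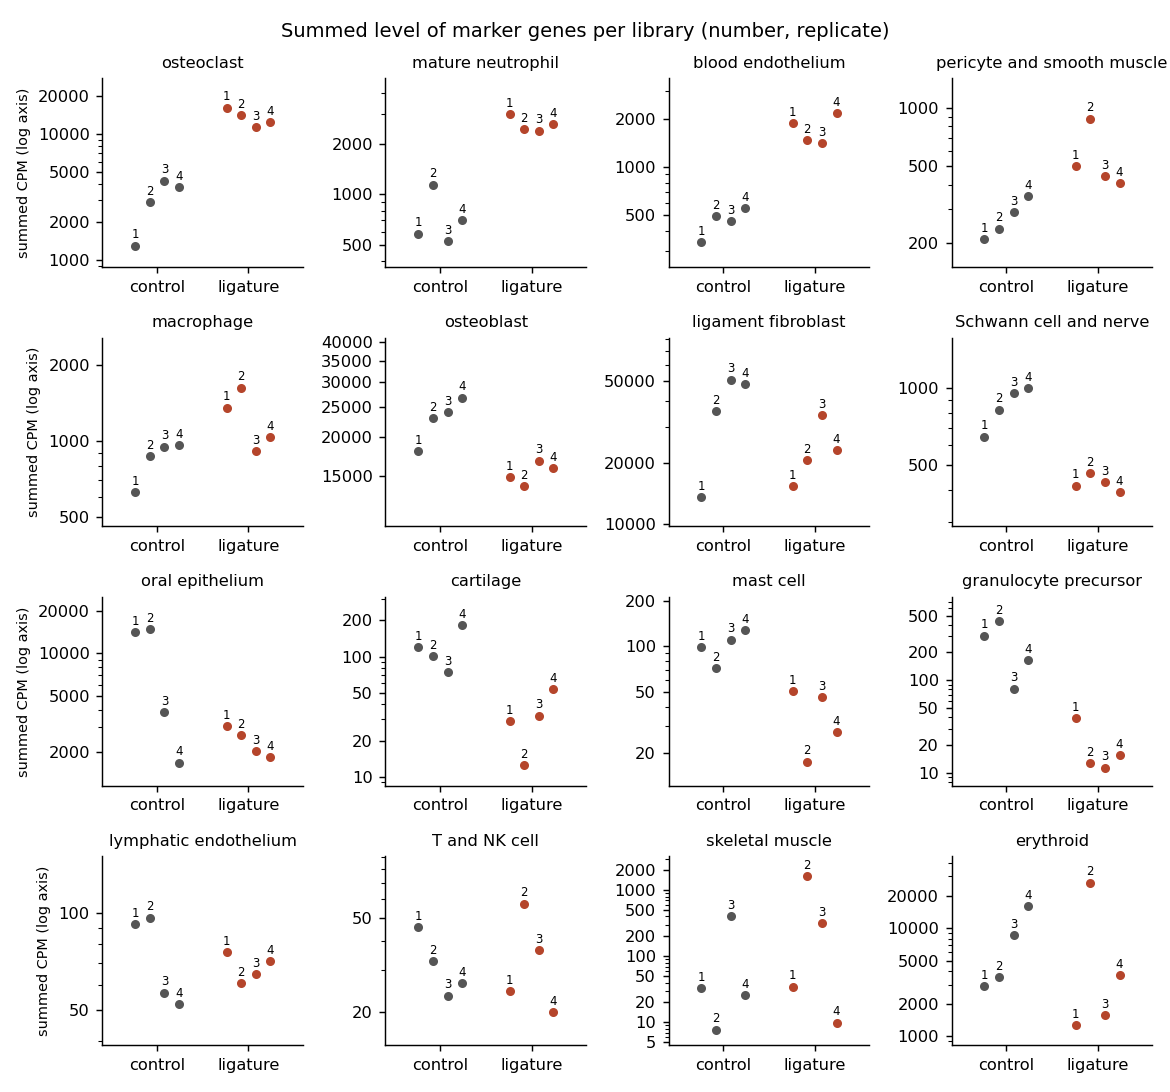
Summed CPM of 16 lists of marker genes in each library, on log axes, with the replicate number beside each point. Osteoclast, neutrophil, blood endothelium and pericyte sums do not overlap between the groups and are higher with the ligature. Osteoblast, Schwann cell, cartilage, mast cell and granulocyte precursor sums do not overlap and are lower. Muscle RNA is high in control 3, ligature 2 and ligature 3, and epithelial RNA in controls 1 and 2.

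Genes of bone resorption and of lysosomes rose. Of 12 osteoclast markers 9 rose and none fell (median 2.28, summed level 1298 to 4253 CPM in control and 11266 to 16219 CPM with the ligature). Subunits and partners of the proton pump, which acidifies lysosomes in all cells and the resorption pit in osteoclasts, rose in 14 of 23 and fell in 1, Atp6v0e2 (median 1.28). Atp6v1b2, a subunit of its catalytic head, was at 143, 183, 178 and 152 CPM in control and 819, 460.2, 526 and 572 CPM with the ligature (1.86 ± 0.21, adjusted p = 0.000157). Atp6v0c, the proton-carrying ring subunit, rose from 212 ± 27.6 to 819 ± 227 CPM (1.95 ± 0.23), with reads that can be shared with its copy Atp6v0c-ps2. Of 59 other genes whose symbols start with Atp, 6 rose and 4 fell. Tcirg1, the osteoclast subunit, went from 17.99, 32.7, 33.5 and 35.1 CPM to 187, 152, 125 and 162 CPM (2.39 ± 0.27). Gpr137b, a lysosomal membrane protein, rose from 45.96 ± 9.27 to 212 ± 53.8 CPM (2.21 ± 0.25), and its near-identical copy Gpr137b-ps by 2.33 ± 0.25, so the pair is uncertain gene by gene.

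The receptor of the osteoclast-inducing ligand RANKL and the ligand had similar log2 fold changes. Tnfrsf11a, the receptor gene, was at 5.82, 17.5, 10.7 and 15.5 CPM in control and 90.9, 19.2, 54.5 and 63.96 CPM with the ligature (2.21 ± 0.49). Ligature 2 lay just above the highest control. Tnfsf11, the ligand gene, was at 2.56, 18.96, 17.1 and 37.5 CPM in control and 97.8, 81.3, 93.5 and 65.6 CPM with the ligature, with separate ranges but an adjusted p of 0.0755 (2.15 ± 0.75). It passed in 4 of the 26 alternatives, with 0.0127 as the lowest adjusted p and 0.322 as the highest. Control 1 had the lowest level of both, and that library was also lowest for Rac2, Tcirg1 and Mmp13. The macrophage growth factor Csf1 did not pass (0.44 ± 0.28, adjusted p = 0.322), and its receptor Csf1r passed (1.46 ± 0.39) but not without control 1, control 3, control 4 or ligature 1, nor without the 3 libraries with muscle RNA. Lysosomal hydrolases rose in 8 of 22 and fell in none (median 0.42). Gla, or alpha-galactosidase A, rose from 6.66 ± 0.931 to 31.4 ± 6.69 CPM (2.24 ± 0.297), Gusb, or beta-glucuronidase, by 1.65 ± 0.24, and the cathepsin Ctsz by 1.66 ± 0.25. Without single libraries the count of hydrolases was 3 to 8, with 3 without control 1 or ligature 1, 4 without control 2, control 4 or ligature 4, and 5 without control 3 or ligature 2.

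Some DNA synthesis genes rose. Of 18 nucleotide synthesis genes 6 rose and none fell (median 0.43). Tyms, which makes thymidylate, was at 13.5, 14.7, 15.96 and 15.2 CPM in control and 57.9, 116, 52.3 and 48.7 CPM with the ligature, where ligature 2 was well above the other 3 (2.21 ± 0.32). Ctps, which makes cytidine triphosphate, was at 30.3, 30.3, 20.7 and 23.4 CPM and 62.4, 78.9, 61.7 and 60.99 CPM (1.33 ± 0.22). The replication helicase gene Mcm5 rose from 5.01 ± 1.701 to 23.8 ± 4.81 CPM (2.25 ± 0.29). All 11 histone H2A genes whose symbols start with Hist1h2a rose, while of 39 other genes whose symbols start with Hist none passed. Among the 11, Hist1h2ag stood at 9.35, 77.04, 7.11 and 6.43 CPM in ligature 1 to 4 and 1.498, 1.59, 2.57 and 1.53 CPM in control, so that ligature 2 stood far above the rest. It did not pass without ligature 2 (adjusted p = 0.0607), with limma-voom (0.0603) or without the 3 libraries with muscle RNA (0.137). Hist1h2ah and Hist1h2aj were lost in the same settings. The coding sequences of the 11 are nearly alike, so counts of single H2A genes are uncertain.

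Most osteoblast markers fell. Of 12 tested 9 fell and none rose (median -1.72). Their summed level was 18012 to 26709.7 CPM in control and 13976 to 16838 CPM with the ligature. Of 17 bone mineral and osteocyte genes 3 fell and none rose (median -0.37). Those 3, Bglap, Smpd3 and Ifitm5, are also among the osteoblast markers just counted. The summed level of the bone mineral and osteocyte list overlapped between the groups, at 13678 to 27769 CPM in control and 23474 to 30594 CPM with the ligature. Bglap (ENSMUSG00000074483.3), or osteocalcin, a late product of osteoblasts, was at 1161, 1751, 2928 and 3049 CPM in control and 246, 431, 228 and 547 CPM with the ligature (-2.61 ± 0.38, adjusted p = 0.000792). Its counts can be shared with Bglap2. Smpd3, a sphingomyelinase needed for mineralisation, was at 52.2, 104, 80.3 and 99.8 CPM and 11.5, 7.202, 19.2 and 2.82 CPM (-3.05 ± 0.56). Every ligature library was below every control for Bglap and Smpd3. Col1a1, the main collagen of bone and ligament, fell by 0.95 ± 0.25 on the log2 scale, but did not pass in a fit of the compared groups, without the filter on low counts, without control 2, control 4 or ligature 1, or without the 3 libraries with muscle RNA. Postn, the abundant matrix protein of the ligament (-0.49 ± 0.45, adjusted p = 0.521), and Sost, the Wnt inhibitor of osteocytes (-3.17 ± 1.07, adjusted p = 0.069), did not pass.

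The Bglap promoter is shown because the gene is a main product of osteoblasts and fell, with capitals for matches to the Runx letters (TGTGGT, on the minus strand here) and to the broad NF-kappa-B letters (GGG and CC with any 5 bases between them), of which a pair overlap.
Bglap: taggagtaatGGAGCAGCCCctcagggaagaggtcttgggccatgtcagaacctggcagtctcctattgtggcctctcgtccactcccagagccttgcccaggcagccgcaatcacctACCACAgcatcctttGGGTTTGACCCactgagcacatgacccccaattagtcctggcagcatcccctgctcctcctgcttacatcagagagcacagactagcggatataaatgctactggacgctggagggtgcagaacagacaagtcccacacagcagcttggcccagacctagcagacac
This window (chr3:88384417-88384716, minus strand, GRCm38.p6) held a Runx match 132 bases before the start, the kind of site bound by the osteoblast factor Runx2. Runx letters were in 15.8% of all windows, 16.9% of those of genes that rose and 14.3% of those of genes that fell. The NF-kappa-B letters were in 68.9%, 68.1% and 68.6%. All 4 windows were searched for the same 4 sets of letters: the Bglap window held neither AP-1 nor C/EBP letters, and those of Saa3, Mmp3 and Fgf7 held neither Runx nor NF-kappa-B letters.

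Some ligament and matrix genes fell. Thbs4, a thrombospondin of tendon and ligament, was at 811, 850.2, 1099 and 1120.0 CPM in control and 85.7, 112, 229 and 79.6 CPM with the ligature (-2.94 ± 0.36, adjusted p = 0.000258). Tnmd, or tenomodulin, fell by 1.61 ± 0.299 on the log2 scale. Of 12 ligament fibroblast markers 4 fell and 2 rose (1 without control 1, 2 or 3 or ligature 1, 3 or 4), and the summed level was 13598 to 50837 CPM in control and 15339 to 34015 CPM with the ligature, so the groups overlapped. Proteoglycan and hyaluronan genes fell in 5 of 23 and rose in 2 (median -0.13), and 3 fell without control 4 or ligature 1. Gpc3, a glypican that restrains growth factor signals, fell from 37.8 ± 14.1 to 8.11 ± 1.19 CPM (-2.22 ± 0.28). Hapln1 of cartilage, the link protein of hyaluronan, fell by 2.53 ± 0.44 on the log2 scale. Of 12 cartilage markers 3 fell and none rose. Elastic fibre and microfibril genes fell in 4 of 18 and rose in none, with a median of -0.06, and none of the 4 passed without the 3 libraries with muscle RNA.

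Several receptors and ligands of local signalling fell. Cntfr (ENSMUSG00000028444.18), the receptor for ciliary neurotrophic factor, was at 67.02, 76.7, 49.7 and 62.1 CPM in control and 1.43, 0.917, 2.502 and 0.787 CPM with the ligature. The lowest control was 19.9 times the highest ligature library (-5.496 ± 0.63, adjusted p = 0.000157). Dner, a Notch-binding membrane protein known from neurons, went from 14.2, 12.7, 13.2 and 10.5 CPM to 1.59, 1.31, 1.28 and 1.15 CPM (-3.25 ± 0.32, adjusted p = 5.73e-05). Kctd12, an auxiliary subunit of GABA-B receptors, went from 516, 441, 784 and 941 CPM to 80.2, 51.998, 152 and 116 CPM (-2.75 ± 0.34). The 3 genes had no overlap between the groups, which was a condition for naming them. Tgfb2, a transforming growth factor of mesenchyme, fell from 109.7 ± 23.7 to 32.4 ± 4.77 CPM (-1.76 ± 0.23), and Bmp3, which restrains bone formation, fell from 305 ± 49.7 to 83.9 ± 34.6 CPM (-1.86 ± 0.34). Bmp5, a bone morphogenetic protein, rose from 12.7 ± 4.39 to 40.8 ± 5.301 CPM (1.68 ± 0.29). Of 24 genes of the BMP and TGF-beta ligands and antagonists 3 rose and 4 fell, and 2 fell without ligature 2.

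Some guidance, hedgehog and Notch genes fell. Of 25 neurotrophin and axon guidance genes 3 fell and none rose (median -0.73), and 6 fell without ligature 4. Robo1, the receptor for Slit repellents, was at 109, 103, 115 and 140.3 CPM in control and 34.3, 25.4, 47.2 and 41.3 CPM with the ligature (-1.65 ± 0.22, adjusted p = 0.000441). Of 19 hedgehog and Notch genes 6 fell and 1 rose (median -0.75). Hey1, a Notch target, fell from 35.03 ± 6.38 to 14.5 ± 2.04 CPM (-1.27 ± 0.23). Ptch1, the hedgehog receptor and target, fell from 30.3 ± 11.8 to 10.2 ± 3.27 CPM (-1.57 ± 0.34), but did not pass without the 3 libraries with muscle RNA (adjusted p = 0.137). The effector genes Gli1 and Gli2 also fell. The member that rose was the vessel ligand Dll4 described above.

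Patterning transcription factors of jaw and teeth fell in 9 of 25 and rose in 1 (median -0.69). Dlx6 was at 6.07, 6.96, 6.97 and 9.27 CPM in control and 1.797, 0.956, 1.83 and 1.698 CPM with the ligature (-2.22 ± 0.32), and Dlx5 at 23.9, 25.4, 34.3 and 37.4 CPM and 8.92, 11.5, 12.5 and 11.5 CPM (-1.44 ± 0.24). Both homeobox genes act in the jaw and in osteoblasts, and neither had overlapping groups. Pitx1, which marks the lower jaw and the oral lining, was at 78.99, 46.5, 17.7 and 8.77 CPM in control and 3.44, 3.98, 5.51 and 6.42 CPM with the ligature (-2.97 ± 0.57). It did not pass without the 3 libraries with muscle RNA (adjusted p = 0.0521). Its level was highest in controls 1 and 2, which held the most epithelial RNA, and lowest among controls in control 4. The part of epithelium in its difference was not tested. The factor that rose was Lhx6, which did not pass without control 1, control 4 or ligature 4, nor without the 3 libraries with muscle RNA.

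The insulin-like growth factor axis fell in 5 of 15 members and rose in 2 (median -0.34). Pappa2, a protease that frees the growth factors from their binding proteins, was at 12.3, 12.5, 6.33 and 5.24 CPM in control and 1.39, 0.956, 2.25 and 1.48 CPM with the ligature (-2.58 ± 0.397). Stc2, an inhibitor of the same family of proteases, fell from 9.903 ± 4.02 to 1.95 ± 0.8095 CPM (-2.34 ± 0.44). Igfbp4, the binding protein that this protease family cleaves, was higher, at 120.3, 187, 259 and 269 CPM in control and 437, 881, 487 and 468 CPM with the ligature (1.44 ± 0.32). Ligature 2 was far above the other 3 libraries, and Igfbp4 did not pass without the 3 libraries with muscle RNA (adjusted p = 0.106). Of the axis, 3 members fell without control 3, control 4, ligature 3 or ligature 4, and 1 rose without control 2, control 3, control 4 or ligature 2.

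Circadian clock genes fell in 6 of 19 and none rose (median -0.72). Bhlhe41, or Dec2, a clock repressor, was at 31.04, 29.6, 23.05 and 28.99 CPM in control and 6.399, 4.02, 5.54 and 7.58 CPM with the ligature (-2.26 ± 0.25, adjusted p = 0.000157). Hlf, a clock output factor, was at 45.1, 40.4, 47.1 and 59.1 CPM and 7.52, 5.29, 15.96 and 11.2 CPM (-2.26 ± 0.35). Neither had overlapping groups. Per3 and Tef, a period gene and a relative of Hlf, fell by 1.39 ± 0.22 and 1.197 ± 0.27 on the log2 scale. The part of the hour of sampling was not tested.

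Nerve and epithelial genes fell. Of 16 Schwann cell and nerve markers 7 fell and none rose (median -0.97), and their summed level was 647 to 998 CPM in control and 394 to 467 CPM with the ligature. Mbp, a protein of compact myelin, was at 87.2, 87.1, 111 and 131 CPM in control and 28.95, 37.5, 23.8 and 29.2 CPM with the ligature (-1.802 ± 0.33). Of 18 oral epithelium markers 10 fell and none rose (median -2.12), and 6 fell without control 2, ligature 1, ligature 2 or ligature 3. With limma-voom 1 fell, and without the 3 libraries with muscle RNA 0 fell. Odam, a protein of the junctional epithelium that seals the gum to the tooth, was at 5713, 4223, 2218 and 1313 CPM in control and 259, 559, 464 and 389 CPM with the ligature (-3.01 ± 0.48). Gsta3, a glutathione transferase, went from 114, 48.3, 30.9 and 21.5 CPM to 0.804, 3.77, 3.71 and 3.33 CPM (-4.21 ± 0.64), and Psca, a surface protein of epithelia, from 158, 131, 66.1 and 24.6 CPM to 8.34, 3.88, 5.58 and 0.483 CPM (-4.38 ± 0.71). In these 3 genes controls 1 and 2, which held the most epithelial RNA, were highest, control 4 was lowest among controls, and the groups did not overlap. The part of epithelial RNA in these differences was not tested.

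Without the 3 libraries with muscle RNA, 378 genes rose and 236 fell of 22712 tested, against 1233 and 1001 of 20953 with all libraries. Several of the list counts above were smaller in that setting as well. Among the falls they were 4 for osteoblast, 2 for Schwann cell and 1 for cartilage markers, 2 for craniofacial factors, 3 for hedgehog and Notch genes, and 2 for proteoglycan genes, ligament fibroblast markers, macrophage markers, the insulin-like growth factor axis and the BMP and TGF-beta list, and 1 for axon guidance. Among the rises they were 5 for myeloid receptors, 3 for lysosomal hydrolases and 3 for interleukin 6 and interleukin 1 family genes. They were 2 for nucleotide synthesis and 1 for inflammasome and pyroptosis genes, macrophage markers, ligament fibroblast markers and the BMP and TGF-beta list. For the insulin-like growth factor axis, proteasome genes and lymphatic markers they were 0. The counts for osteoclast and blood endothelium markers, trafficking receptors and the actin machinery stayed within 1.5 times.

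Some housekeeping programmes showed no gene that passed. Of 22 aminoacyl-tRNA synthetase and amino-acid stress genes, 18 ribosome biogenesis genes, 18 cholesterol genes and 17 fatty acid oxidation genes none passed with edgeR, with medians of 0.25, 0.21, 0.18 and 0.22. At an unadjusted p under 0.05 there were 6, 4, 0 and 6, and DESeq2 called 2, 1, 0 and 1. All 19 proteasome subunits had a positive log2 fold change (median 0.93, and 0.41 without ligature 2), and 3 of them passed. Their summed level was 6905 CPM in ligature 2 and 2830.4 CPM in the next highest ligature library. None passed without ligature 2, and 1 passed without control 1, control 2 or control 4. Mitochondrial ribosome genes whose symbols start with Mrpl rose in 9 of 51 and fell in none (median 0.83). Zinc finger genes of the Zfp family fell in 12 of 372 (3.23%, below the 4.78% of all genes) and rose in none (median -0.36). The part of the shift to short transcripts in ligature 2 in the Mrpl and Zfp medians was not tested.

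Of 3240 long noncoding RNAs 60 rose and 39 fell (3.06% passed), and of 15758 protein-coding genes 1094 rose and 944 fell (12.9%). AI662270 was at 4.56, 9.11, 12.4 and 14.5 CPM in control and 44.8, 67.6, 38.5 and 38.3 CPM with the ligature (2.22 ± 0.31). 4930430E12Rik went from 0.278, 0.163, 0.746 and 0.534 CPM to 9.71, 7.38, 7.37 and 8.68 CPM (4.26 ± 0.46). Neither overlapped between the groups. Without a stated strand setting for the counting, reads of such genes and of genes that overlap them cannot be told apart. Ptprv, a receptor-type phosphatase gene known from mouse osteoblasts, was at 48.6, 46.4, 45.1 and 47.5 CPM in control and 8.42, 3.61, 16.8 and 7.68 CPM with the ligature (-2.36 ± 0.41). Its control values lay close together and above all ligature values.

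The same ligature effect could be read in the other 8 libraries, ligature plus trauma against trauma alone, which share no library with the comparison above. There 1149 genes passed (5.48%), 464 higher (2.21%) and 685 lower (3.27%). Of the 2234 genes that passed with the ligature alone, 765 (34.2%) passed in the same direction, which is 66.6% of the 1149, and 1 passed in the opposite direction. The sign was the same for 2162 (96.8%), and the matching share over all genes tested was not worked out. Genes that rose with the ligature alone had a median of 0.93 here, and those that fell a median of -1.13. These genes were picked by the first comparison, so smaller medians here do not by themselves show a weaker effect. Fgf7 (3.08 ± 0.22, adjusted p = 4.04e-06), Mmp3 (7.39 ± 0.78, adjusted p = 0.000386), Cntfr (-4.33 ± 0.59, adjusted p = 0.00163) and Thbs4 (-2.97 ± 0.36, adjusted p = 0.000979) were among the 765. Osteoclast markers rose in 9 of 12, blood endothelium markers in 10 of 14, and proton pump genes in 12 of 23. Clock genes fell in 5 of 19 and epithelial markers in 12 of 18. Other groups had fewer calls than with the ligature alone. Osteoblast markers fell in 3 of 12 (median -0.92) and craniofacial transcription factors in 2 of 25 (median -0.35). Schwann cell markers fell in 0 of 16 (median -0.34). Nucleotide synthesis genes rose in 1 of 18 (median 0.08). No gene passed of 18 in the interleukin 6 and interleukin 1 families (median 0.47) or of 11 Hist1h2a genes (median 1.53, all 11 positive). Fewer of all genes tested passed here (5.48% against 10.7%), so fewer calls alone do not show that a group failed to repeat. The median of mast cell markers was 0.95 here and -1.90 with the ligature alone, and that of granulocyte precursor markers 1.49 and -3.09.

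**Figure D5:**
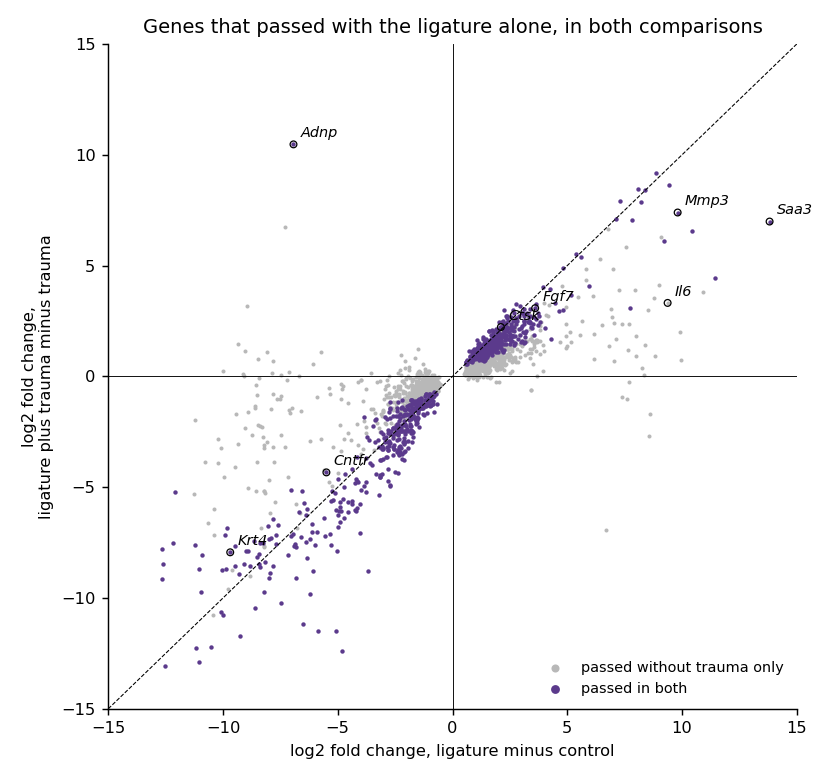
Log2 fold changes of the 2234 genes that passed with the ligature alone. The horizontal axis gives ligature minus control and the vertical axis ligature plus trauma minus trauma, from 8 other libraries. Purple points passed in both comparisons (765 in the same direction and 1, Adnp, in the opposite one), grey points in the first only, and the dashed line marks equal changes. Saa3 and Il6 lie well below the line.

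Whether the ligature effect differed with trauma was tested by the interaction in the same model. No gene passed with edgeR, 1032 had an unadjusted p under 0.05, and 51 passed with DESeq2. The lowest adjusted p was 0.108, for Saa3, whose log2 fold change was 13.81 ± 1.09 without and 6.99 ± 0.84 with trauma. Its level was 24.1 to 139.9 CPM in the 4 trauma libraries and 1942 to 20656 CPM in the 4 with both. Mcm5 was at 8.504 to 15.03 CPM in the trauma libraries and 11.02 to 18.5 CPM in those with both, without a call (adjusted p = 0.664). The gene with opposite calls was Adnp, a homeobox protein gene of the chromatin, named after its values were seen. It was at 8.98, 15.4, 30.2 and 0 CPM in control and 0.0788, 0, 0.151 and 0.193 CPM with the ligature, at 0 to 0.0403 CPM with trauma and at 0 to 36.7 CPM with both treatments, so that libraries of 1 group differed widely. The lower call with the ligature alone was lost in 18 of the 26 alternatives.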

How the data were processed

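RNA selected for poly(A) tails from 16 libraries, 4 a group, was sequenced, and the authors deposited raw counts per gene, which were used as deposited. Trimmomatic 0.39, FastQC 0.11.9, HISAT2 2.2.1, StringTie 2.1.7, DESeq2 1.32.0 and the build GRCm39 are named per the submitters' processing notes. The sources used here give neither their roles nor the annotation release and strand setting, so overlapping genes and near-identical copies may share counts. The table held 55359 genes, of which 52083 were matched to a symbol, and genes without one took 0.205% of the counts. Genes passing filterByExpr (minimum count 10) were scaled by TMM and fitted with edgeR 4.0.16 (R 4.3.3) by the quasi-likelihood test on all 16 libraries, with group means and 12 residual degrees of freedom. Ligature against control, ligature plus trauma against trauma, and their interaction were tested, with Benjamini-Hochberg adjustment over 20953 genes and a threshold of 0.05. DESeq2 1.42.0, limma-voom (limma 3.58.1), other scalings and filters, a length correction, a replicate block and left-out libraries were alternatives. The scripts were tested on simulated data. Genes were named by rule: the largest fold changes, the lowest p, the largest CPM differences, leading genes of lists and families, and a fixed panel. The gene lists were chosen with earlier results of these data known, so they are not independent evidence. Some genes, such as Rac2, Dlx5, Mmp9 and Il1b, are in several lists, so the list counts are not separate observations. Counting error is small at these depths for well-expressed genes but not for levels near 0, and the number of libraries limits the precision.
Some genes are not reported here.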

Additional observations from a re-analysis of the deposited data

Results flagged for a closer look

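In 28 of 327 groups of 4 libraries examined, 1 library lay far from the other 3. For independent values from a normal distribution, chance gives such a gap in about 1 of 20 groups. The groups here share the same libraries and include genes named for their results, so that share is no baseline for the 28. The part of cell makeup, transcript length or handling in these values was not tested.

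Ligature 2 was the library apart most often. It was high for Ccr7 (31.1 CPM, next 17.0), Ctps (78.9, next 62.4), Hist1h2ag (77.04, next 9.35), Igfbp4 (881, next 487), Saa3 (14995, next 5665), Selplg (123, next 73.6) and Tyms (116, next 57.9), and low for Dlx6 (0.956, next 1.70). Its summed levels were high for glucocorticoid-induced genes (5752 CPM, next 3315), proteasome genes (6905, next 2830.4) and erythroid markers (26295, next 3682). They were low for growth factors and their receptors (1095 CPM, next 1716) and p53 targets (1484, next 1947).

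Control 1 was low for Cd68 (37.2 CPM, next 83.1), Hapln1 (11.2, next 19.1), Mmp13 (772, next 3395), Rac2 (9.24, next 27.7) and Tcirg1 (17.99, next 32.7). It was high for Kit (87.6 CPM, next 43.1), Lamc3 (44.4, next 25.8) and Saa3 (0.979, next 0.399).

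Control 3 was high for Hist1h2ag (2.57 CPM, next 1.59), Il6 (0.309, next 0.0483) and for the muscle marker sum (402 CPM, next 32.7). Ligature 1 was high for Ccl21a (0.158 CPM, next 0.0552) and the granulocyte precursor sum (39.1 CPM, next 15.5), and low for Gsta3 (0.804 CPM, next 3.33). Ligature 4 was high for the odontoblast and pulp sum (3206 CPM, next 713).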

How the results depend on the processing

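No named gene that passed changed direction under any of the 26 alternatives, and the muscle gene Actn3, which did not pass, did (1.31 with all libraries, -0.35 at the lowest). In all, 118 of the 229 named genes that passed did so in each alternative that gave them an adjusted p. The count of 2234 genes (1233 higher, 1001 lower) became 3698 (1947 and 1751) with DESeq2, 1369 (744 and 625) with the compared groups fitted alone and 614 (378 and 236) without the 3 libraries with muscle RNA, a setting added after seeing the data. Leaving out 1 library at a time gave 1430 to 2125 genes, 766 to 1187 higher and 554 to 1010 lower. The 765 genes that passed in the same direction with trauma became 1372 with DESeq2, 345 without the libraries of short transcripts and 437 to 792 with 1 library left out. For the interaction DESeq2 called 51 genes, the fit without the short-transcript libraries 2, and fits without 1 library 0 to 2. The cause of these shifts was not tested, and the smaller fits also hold fewer libraries. With the replicate block 2082 genes passed (1192 higher, 890 lower). Libraries that share a number did not deviate together (correlations 0.0505, -0.0747, -0.0566 and 0.0624), so the numbers were not taken to pair the libraries. Of 2912 counts of list members under an alternative, 2516 stayed within 1.5 times of those reported and 396 did not. The 2516 include counts of 0 in both fits and settings that left out none of the compared libraries. They therefore do not measure how stable a list is. Oral epithelium markers that fell went from 10 to 1 with limma-voom, and myeloid receptors that rose from 12 to 3 without control 1.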
